A study of Homo sapiens with 10 samples.

Results

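This account covers 39 human genes of the autophagy machinery and its cargo receptors, chosen by name from the read count table of a high glucose experiment. All 39 names matched 1 row each of the 22626 rows in the table, and all 39 were among the 14936 rows that passed the filter on low counts and were tested. By step, 17 genes act in initiation and growth of the membrane, 15 in lipidation of the ATG8 proteins, 5 are cargo receptors and 2 belong to the TFEB family of transcription factors. The genes were picked by name and function, with earlier results of these data known.

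Macroautophagy encloses cytoplasm in a growing double membrane, the phagophore, which closes into an autophagosome and fuses with the lysosome. A kinase complex around ULK1 starts the process, a lipid kinase complex marks the membrane with phosphatidylinositol 3-phosphate, and conjugation enzymes then attach ATG8 proteins such as LC3B to it, to which receptors such as p62 dock their cargo. In the retinal pigment epithelium, the cell layer that serves the photoreceptors, part of this machinery also acts in the clearance of shed outer segments.

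RNA was sequenced from ARPE-19, a human cell line derived from retinal pigment epithelium, after 48 h in culture. The control group (n = 5) was kept in 5.5 mM glucose with 32 mM mannitol, an osmotic control sugar, and the high glucose group (n = 5) in 37.5 mM glucose without it, so that glucose and mannitol differed together and their parts cannot be told apart. Neither group carried a genetic change, and both are the same cell line. The labels do not say whether the libraries of a group came from separate cultures, so the p-values measure the spread between these libraries, which may be technical. The high glucose libraries are called HG_1 to HG_5 as in the deposited table. Their labels carry the letters A to E instead, and which letter each number stands for is not known.

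Libraries held between 32448991 and 45864176 counts. TXNIP, a gene whose transcription is known to follow glucose, served as a check of the labels. It rose by 3.15 (SE 0.249) on the log2 scale, with no overlap of the groups (quasi-likelihood test of edgeR, Benjamini-Hochberg adjusted p = 5.55e-05). The lowest count of any library was 27 and the highest 581. Keratins and early markers of the pigment epithelium were present in every library, with KRT8 between 546 and 1050, OTX2 between 29.8 and 36.3 and MITF between 8.46 and 12.8 FPKM, the deposited level per transcript length and library depth. Markers of the mature epithelium differed: RLBP1 lay between 4.57 and 7.34 FPKM and PMEL between 0.704 and 1.89, LRAT (0.183 to 0.625) and SERPINF1 (0.266 to 0.676) were low, RPE65 and TYR reached 0.0283 and 0.365 at most, and TTR was at 0 in all libraries. BEST1 was at 57.2 and 120 FPKM in control replicates 1 and 4 and between 0.237 and 1.63 in the other libraries. Control replicates 1 and 4 also lay farthest from the high glucose libraries on the first principal component (17% of the variance). They were at 39.3 and 34.8, and the other controls between 9.11 and 24.4. Of the 9 markers of other cell types, 8 were at or below 0.0615 FPKM in every library, and COL1A1 lay between 3.11 and 11.1. Control replicate 2 and HG_1 stood apart from the other libraries on the second principal component (14.9% of the variance). In these 2 libraries counts rose with the GC content of a gene, by 0.17 and 0.19 on the log2 scale for each 10 percentage points of GC, against -0.09 to -0.01 in the others. Results that rest on them are therefore given with and without both.

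Few of the 39 genes differed in mRNA between the groups, and those that did moved in both directions. At an adjusted p under 0.05 (quasi-likelihood test of edgeR, adjusted by Benjamini-Hochberg over all 14936 rows), 4 genes were higher in high glucose and 3 lower. WIPI1, MAP1LC3B, SQSTM1 and ATG12 were the 4 higher genes, and VMP1, ULK1 and MAP1LC3A the 3 lower ones. These 7 of 39 genes (17.9%) stand beside 15.4% of all rows called, 7.62% higher and 7.8% lower, so the share of genes called was near that of the whole transcriptome. The groups did not overlap for 5 genes, against 13.6% of all rows: WIPI1, MAP1LC3B, ATG12 and ATG2A lay above the controls, and VMP1 below. The median log2 fold change was 0.09 over the 39 genes and 0.00 over all rows, and 0.04 and -0.00 after correction for GC content and length. Of the 39 estimates, 27 (69.2%) were above 0, against 50.2% of all rows, and 13 genes (33.3%) had an unadjusted p under 0.05, against 28.5% of all rows. The estimates ran from -0.997 for MAP1LC3A to 0.55 for WIPI1. In bulk RNA a change in the share of cells that express a gene and a change in the RNA per cell cannot be told apart.

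**Figure D1:**
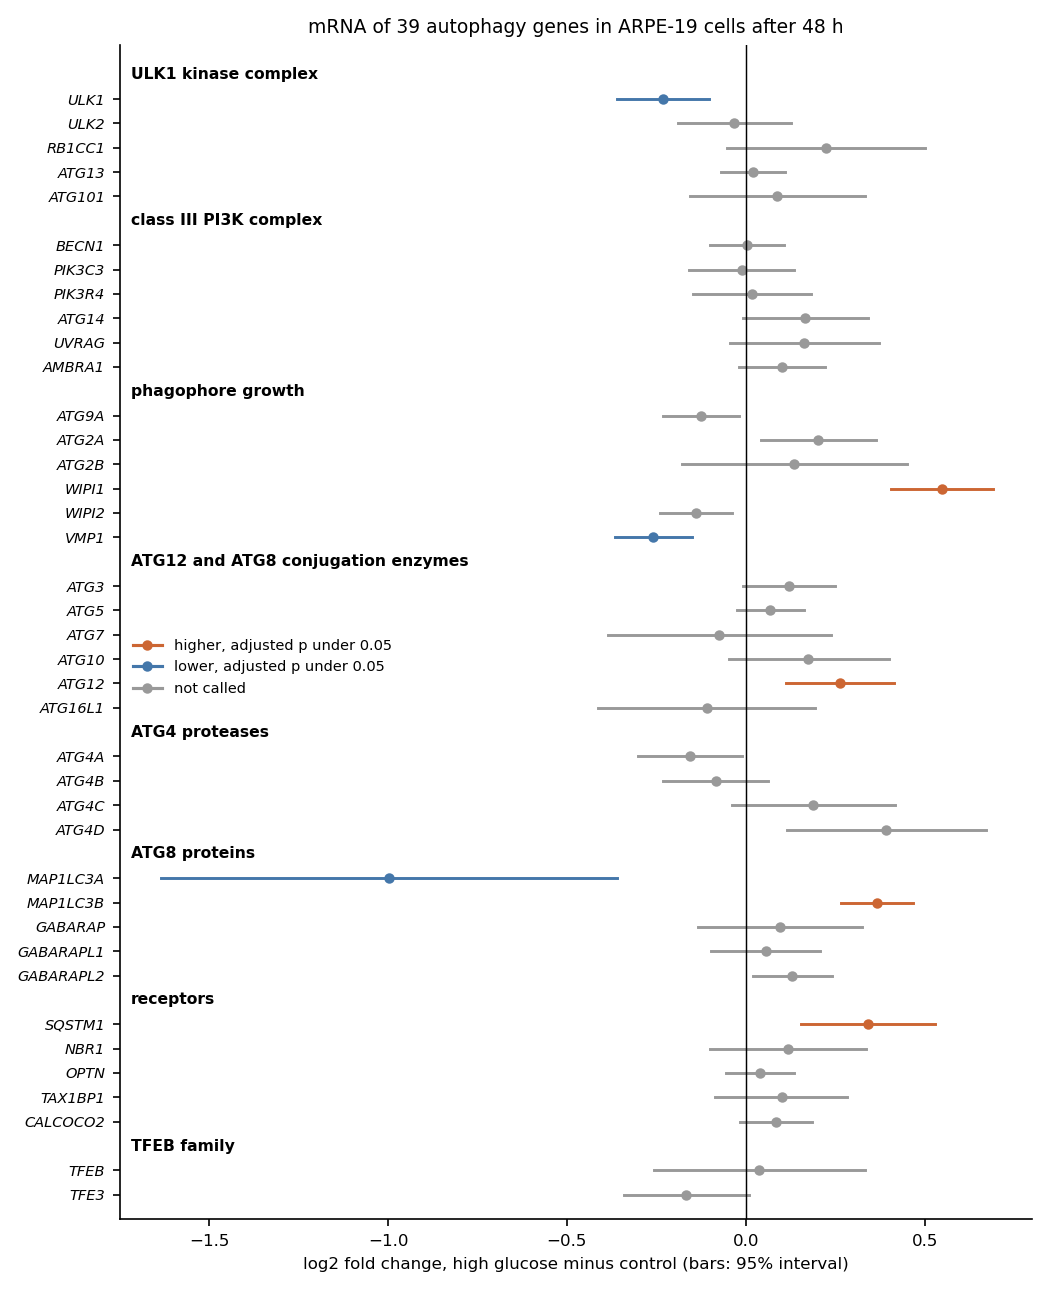
Log2 fold change (high glucose minus control, x axis) of the 39 genes, grouped by role. Points are edgeR estimates from 5 against 5 libraries and bars their 95% intervals. Orange marks the 4 genes called higher and blue the 3 called lower, and the widest interval is that of MAP1LC3A.

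The levels of the 39 genes spanned more than their changes. Per length, the control mean was highest for SQSTM1 at 300 ± 29.8 FPKM (SD, n = 5), followed by GABARAP at 206 ± 18.7. MAP1LC3B (68.7 ± 3.58), OPTN (66.8 ± 4.18) and GABARAPL2 (60.9 ± 3.03) came next, and MAP1LC3B and OPTN did not differ beyond their spread. At the low end were UVRAG at 3.20 ± 0.424, ATG2B at 2.61 ± 0.397, ATG10 at 2.39 ± 0.474 and MAP1LC3A at 1.13 ± 0.156 FPKM. SQSTM1 had 25463 to 48475 counts in a library, and MAP1LC3A 11 to 55. A count of 0 would have allowed a level of up to 0.0669 to 0.0912 CPM, read counts scaled to library size, depending on the library and for counting error alone, and no gene of the 39 was at 0 in any library.

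**Figure D2:**
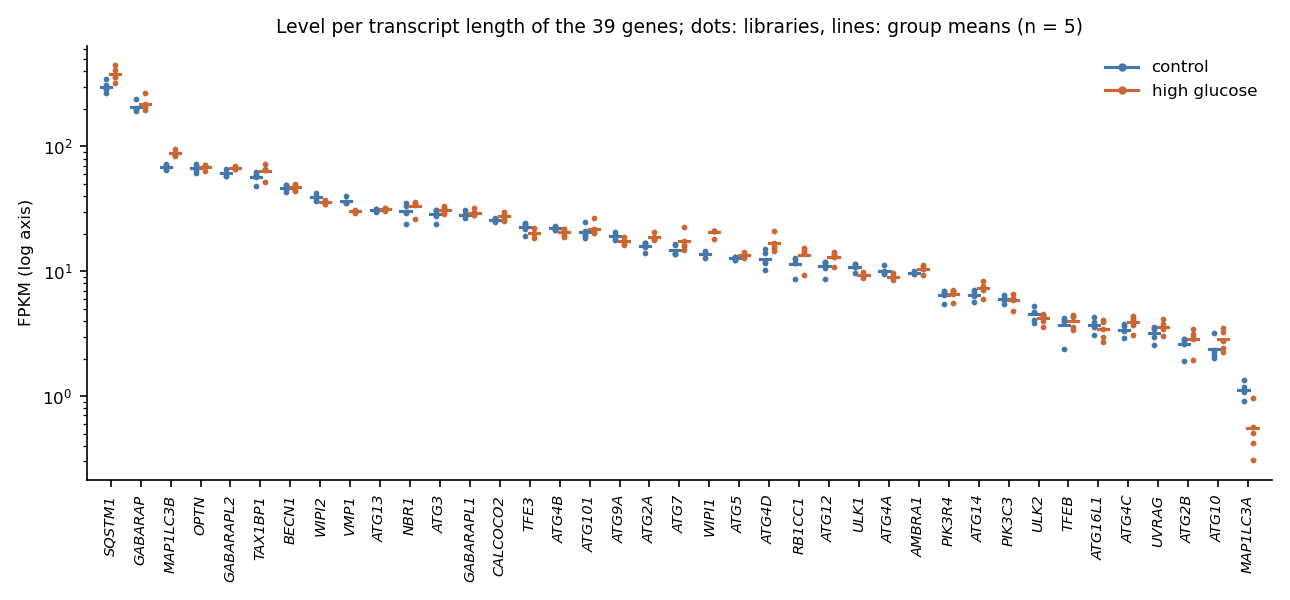
Level per transcript length (FPKM, log axis) of the 39 genes in order of their control mean, with each library as a dot and the group mean of 5 libraries as a line. SQSTM1 and GABARAP lie at the top and MAP1LC3A at the bottom, and for most genes the 2 groups cover the same range.

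Of the 5 genes of the ULK1 kinase complex, 1 fell and none rose. ULK1 encodes the kinase itself. It was at 66.1, 63.8, 62.3, 55.9 and 65.6 CPM in control replicates 1 to 5, and at 56.7, 53.1, 55.9, 51.6 and 50.1 CPM in HG_1 to HG_5. All high glucose libraries lay below 4 of the 5 controls, and the groups overlapped through control replicate 4. The mean went from 62.8 ± 4.11 to 53.5 ± 2.82 CPM (SD, n = 5), a log2 fold change of -0.23 (SE 0.0588, edgeR with Benjamini-Hochberg adjustment, adjusted p = 0.0227). This call did not survive every check. It was lost without HG_2, HG_4, HG_5, control replicate 1 or control replicate 5 (adjusted p of up to 0.0593 in edgeR), and after removal of the trends on GC content and length (log2 fold change -0.15, adjusted p = 0.0717). ULK1 lies at chr12:131894651-131923167 on the plus strand (GRCh38, GENCODE v29), with no gene annotated on the other strand.

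The scaffold RB1CC1, also known as FIP200, had a higher mean in high glucose, at 95.5 ± 14.9 against 81.7 ± 11 CPM, but was not called (log2 fold change 0.23, 95% interval -0.05 to 0.50). HG_1 was at 69.7 CPM and the other high glucose libraries were between 97.5 and 107, while control replicate 2 was at 63.8 and the other controls between 81.7 and 92.4. Both low values came from the 2 libraries that stood apart, and without them RB1CC1 passed the test at a log2 fold change of 0.24 (edgeR with Benjamini-Hochberg adjustment, adjusted p = 0.00658). ULK2, ATG13 and ATG101, the second kinase and the 2 adaptor subunits, had estimates of -0.03, 0.02 and 0.09 and were not called. The interval for ATG13 was narrow, from -0.07 to 0.11.

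None of the 6 genes of the class III phosphatidylinositol 3-kinase complex was called. PIK3C3 (the lipid kinase), PIK3R4 (its regulatory subunit) and BECN1 (beclin 1) had estimates of -0.01, 0.02 and 0.00, with 95% intervals that stayed within -0.16 and 0.18. ATG14 and UVRAG, which bind beclin 1 in alternative complexes, had estimates of 0.17 and 0.16, and AMBRA1, a scaffold of beclin 1, one of 0.10. ATG14 was not called without control replicate 2 and HG_1 (adjusted p = 0.0527 in edgeR) but was after the GC and length trends were removed (adjusted p = 0.0294), as was AMBRA1 (adjusted p = 0.0217).

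The 6 genes of phagophore growth held the largest rise and one of the 3 falls. WIPI1 encodes a protein that binds phosphatidylinositol 3-phosphate on the young membrane. It was at 25.5, 28.2, 27.1, 28.2 and 26.5 CPM in control replicates 1 to 5, and at 42.8, 39.7, 39.8, 41.5 and 34.4 CPM in HG_1 to HG_5. Every high glucose library was above every control, and the lowest of them, HG_5, exceeded the highest control by more than the whole range of the controls. The mean rose 1.46-fold, from 27.1 ± 1.16 to 39.6 ± 3.19 CPM (log2 fold change 0.55, SE 0.0646, 95% interval 0.41 to 0.69, edgeR with Benjamini-Hochberg adjustment, adjusted p = 0.000379). WIPI1 was called in all 20 alternative analyses, with estimates between 0.50 and 0.59. It lies at chr17:68420948-68457513 on the minus strand, and when its longest transcript was read in windows of 100 bases, 25.4% of them recurred in transcripts of ARSG on the other strand. ARSG was at 19.1 ± 2.78 CPM in controls and 22.6 ± 1.97 CPM in high glucose and was not called (log2 fold change 0.24, adjusted p = 0.148 in edgeR). Whether reads were counted by strand is not given in the sources used here, and the part of such shared stretches in the result was not tested.

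WIPI2, the closest relative of WIPI1, binds the same lipid and recruits ATG16L1. Its mean was 114 ± 2.80 CPM in controls and 103 ± 5.58 in high glucose (log2 fold change -0.14, 95% interval -0.24 to -0.04), which missed the threshold (edgeR with Benjamini-Hochberg adjustment, adjusted p = 0.0614) and passed it without control replicate 2 and HG_1 (adjusted p = 0.00553). Per length, WIPI1 was thus at 0.351 ± 0.0266 of the WIPI2 level in controls and at 0.573 ± 0.0305 in high glucose (n = 5 each), with ranges of 0.322 to 0.380 and 0.523 to 0.604 that did not overlap. WIPI2 remained the more abundant transcript in every library.

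VMP1 encodes a membrane protein of the endoplasmic reticulum needed for phagophore growth. Control replicates 1 to 5 were at 157, 146, 133, 142 and 138 CPM, and HG_1 to HG_5 at 123, 114, 122, 120 and 119 CPM. All high glucose libraries lay below all controls and within a narrow range of each other. The mean fell from 143 ± 8.97 to 120 ± 3.35 CPM, 1.20-fold (log2 fold change -0.26, SE 0.0489, edgeR with Benjamini-Hochberg adjustment, adjusted p = 0.00502), and VMP1 was called in all 20 alternative analyses (-0.30 to -0.23). The gene spans chr17:59707192-59842255 on the plus strand. MIR21, the gene of a microRNA, is annotated on the same strand within it, and PTRH2 on the other.

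The lipid transfer proteins ATG2A and ATG2B and the scramblase ATG9A were not called. ATG2A was between 94.8 and 117 CPM in controls and between 119 and 145 in high glucose, so the groups did not overlap, yet the adjusted p was 0.0866 (edgeR, log2 fold change 0.20, 95% interval 0.04 to 0.36). It passed without control replicate 2 and HG_1 (0.17, adjusted p = 0.0433) and after the GC and length trends were removed (0.29, adjusted p = 0.000564). ATG9A had an estimate of -0.12 (adjusted p = 0.111) and ATG2B one of 0.14 with a wide interval of -0.18 to 0.45. Of the windows of ATG9A, 44.1% are shared with AC068946.2 on the same strand. Among the genes above, ATG101 shares 38.6% of its windows with AC025259.1 and BECN1 34.7% with CNTD1, both on the other strand. The part of these stretches in the estimates was not tested.

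**Figure D3:**
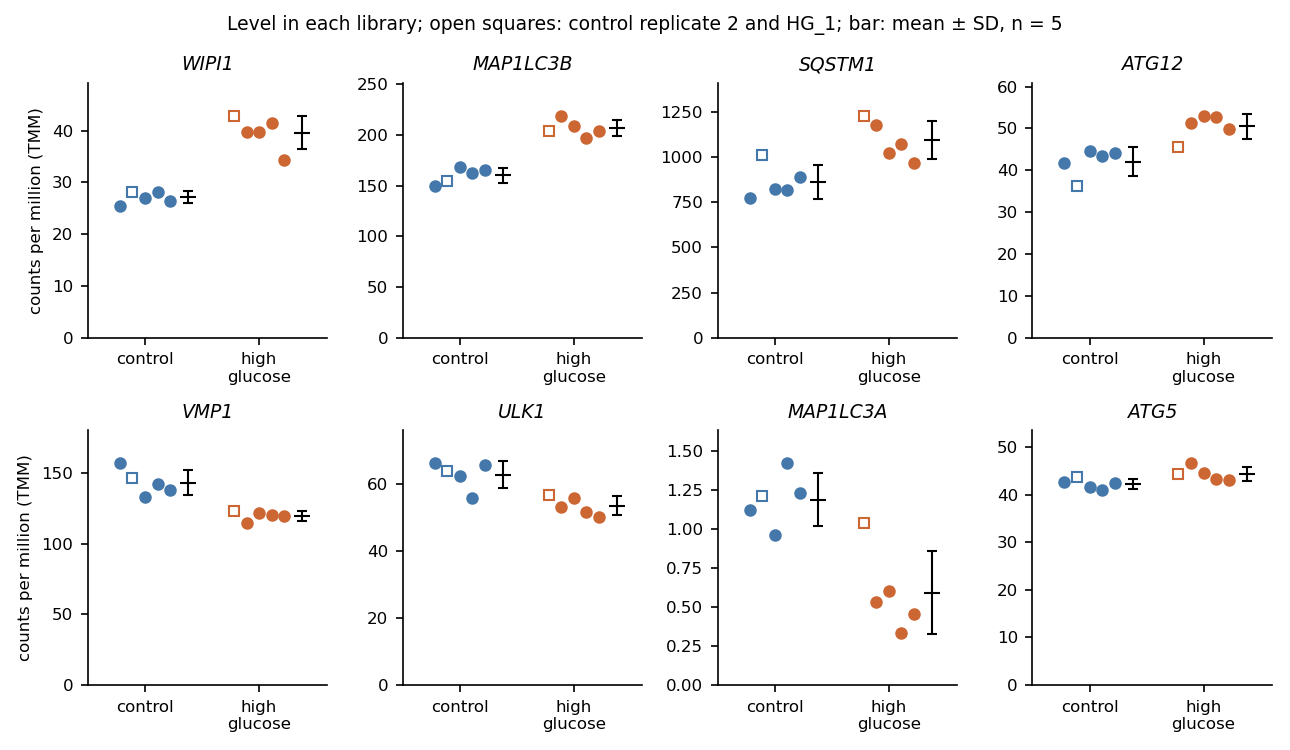
Level in CPM in each library (y axes start at 0) for the 7 called genes and ATG5, with the mean ± SD of 5 libraries beside each group. Open squares are control replicate 2 and HG_1. The groups are separate for WIPI1, MAP1LC3B, ATG12 and VMP1, and overlap for SQSTM1, ULK1, MAP1LC3A and ATG5.

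Promoter sequence is shown for ULK1 and WIPI1, the called genes of initiation that moved in opposite directions and whose window lay wholly or mostly before their annotated exons. The windows are the 250 bases before the RefSeq start (GRCh38.p14), and for WIPI1 the 17 bases nearest the start were left out because they lie in an annotated exon. ULK1 is chr12:131894372-131894621 on the plus strand, WIPI1 is chr17:68457514-68457746 on the minus strand, both 5′ to 3′ with no motif marked.
ULK1: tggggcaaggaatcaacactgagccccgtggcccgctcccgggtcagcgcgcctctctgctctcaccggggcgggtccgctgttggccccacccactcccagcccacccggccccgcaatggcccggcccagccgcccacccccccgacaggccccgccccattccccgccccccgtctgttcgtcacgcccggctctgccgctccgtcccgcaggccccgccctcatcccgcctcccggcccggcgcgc
WIPI1: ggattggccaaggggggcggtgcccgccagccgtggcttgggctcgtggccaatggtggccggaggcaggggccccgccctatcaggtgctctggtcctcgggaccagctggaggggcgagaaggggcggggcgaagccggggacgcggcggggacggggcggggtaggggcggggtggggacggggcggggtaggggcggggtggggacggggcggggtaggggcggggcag
Both are rich in G and C, 78% for ULK1 and 79% for WIPI1, and the WIPI1 window holds a repeated G-rich stretch toward its 3′ end. Neither holds the E-box CACGTG that TFEB and its relatives bind.

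Of the 6 ATG12 and ATG8 conjugation genes, 1 rose and none fell. ATG12 encodes the ubiquitin-like protein that is joined to ATG5. It was at 41.9, 36.2, 44.7, 43.5 and 44.1 CPM in control replicates 1 to 5 and at 45.5, 51.4, 52.9, 52.7 and 49.9 CPM in HG_1 to HG_5. The groups did not overlap, though HG_1 and control replicate 3 were close, and the lowest value of each group was that of a library that stood apart. The mean rose 1.20-fold, from 42.1 ± 3.46 to 50.5 ± 3.02 CPM (log2 fold change 0.26, SE 0.0684, edgeR with Benjamini-Hochberg adjustment, adjusted p = 0.0247). Without both of those libraries the estimate was 0.25 (adjusted p = 0.00119 in edgeR). The call was lost without HG_2, HG_3, HG_4, HG_5 or control replicate 1 (adjusted p of up to 0.0678) and with limma on log2(FPKM + 1) (adjusted p = 0.148). ATG12 lies at chr5:115828200-115841858 on the minus strand, and 7.2% of its windows overlap other genes, mostly AP3S1 on the other strand, which was not called (log2 fold change 0.11, adjusted p = 0.176).

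ATG5, the partner of ATG12 whose protein was also measured in this cell line, differed little in mRNA. Control replicates 1 to 5 were at 42.6, 43.8, 41.6, 40.9 and 42.4 CPM, and HG_1 to HG_5 at 44.4, 46.6, 44.5, 43.3 and 43.1 CPM. The groups overlapped through control replicate 2, HG_4 and HG_5. The means were 42.3 ± 1.07 and 44.4 ± 1.39 CPM (log2 fold change 0.07, 95% interval -0.03 to 0.16, edgeR with Benjamini-Hochberg adjustment, adjusted p = 0.332). The upper bound of the interval is below the estimates for WIPI1, MAP1LC3B, SQSTM1 and ATG12. The 95% intervals of SQSTM1 (0.153 to 0.53) and ATG12 (0.113 to 0.415) overlap that of ATG5, and differences between genes were not tested. A two-sided exact permutation test of the 10 log2 CPM values gave p = 0.0317 for ATG5, the same after adjustment over SQSTM1, MAP1LC3B and ATG5. The unadjusted p of edgeR was 0.133, and its adjustment was over all rows tested. The call for ATG5 thus depends on the test, and the 2 adjusted values cover different sets of genes.

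ATG3, ATG10 and ATG16L1 were not called, with estimates of 0.12, 0.18 and -0.11. ATG7, the activating enzyme of both conjugation reactions, was not called either. Its counts had a lower mean in high glucose (69.2 ± 14.7 against 72.8 ± 6.23 CPM) and its FPKM a higher one (17.5 ± 3.08 against 14.9 ± 1.41). HG_1 was at 44.3 CPM and the other high glucose libraries between 71.1 and 83.4, and the log2 fold change of the counts went from -0.07 to 0.05 without HG_1 and to 0.10 without both libraries apart (adjusted p = 0.247 in edgeR). The ratio of counts to FPKM varied by 16.6% between libraries for ATG7 and by 12% for ATG10, and by 6.72% or less for the other genes, so no direction is given for ATG7. Of the windows of ATG7, 30.8% are shared with other genes, and its neighbour VGLL4 on the other strand did not pass the test (log2 fold change -0.00, adjusted p = 0.996 in edgeR).

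The 4 ATG4 proteases, which trim ATG8 proteins before lipidation and release them from membranes, were not called. ATG4D had the largest estimate, 0.39 (95% interval 0.12 to 0.67), with control libraries between 20.01 and 29.9 CPM and high glucose libraries between 27.4 and 40.9 (edgeR with Benjamini-Hochberg adjustment, adjusted p = 0.0597). The highest library of each group was one of those that stood apart, and without both ATG4D passed at 0.37 (adjusted p = 0.0124). ATG4A and ATG4B had estimates of -0.16 and -0.08, and ATG4C one of 0.19.

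Among the 5 ATG8 genes, 1 rose and 1 fell. MAP1LC3B encodes LC3B, the most used marker of autophagosomes. It was at 150, 155, 168, 162 and 165 CPM in control replicates 1 to 5 and at 203, 218, 209, 197 and 203.5 CPM in HG_1 to HG_5. All high glucose libraries were above all controls, with a gap between the groups larger than the range of either. The mean rose 1.29-fold, from 160.0 ± 7.55 to 206 ± 7.88 CPM (log2 fold change 0.37, SE 0.0453, 95% interval 0.27 to 0.47, edgeR with Benjamini-Hochberg adjustment, adjusted p = 0.000503). The two-sided exact permutation test gave p = 0.00794, the smallest that the 252 arrangements of 5 against 5 libraries allow (0.0238 after Benjamini-Hochberg adjustment over the 3 genes so tested). MAP1LC3B was called in all 20 alternative analyses (0.34 to 0.38).
The gene lies at chr16:87383995-87404779 on the plus strand. A near copy, MAP1LC3B2, shares 8.0% of its windows, was at 1.68 ± 0.513 CPM in controls and was not called (log2 fold change 0.48, adjusted p = 0.217 in edgeR), so that its counts are about 1 in 100 of those of MAP1LC3B.

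MAP1LC3A, the gene of LC3A, was near the lower limit of what these libraries measure. It was at 1.12, 1.21, 0.962, 1.42 and 1.24 CPM in control replicates 1 to 5 and at 1.04, 0.533, 0.602, 0.334 and 0.456 CPM in HG_1 to HG_5. HG_1 lay within the control range, and the other 4 high glucose libraries were below every control. The mean was 1.19 ± 0.168 CPM in controls and 0.593 ± 0.268 in high glucose (log2 fold change -0.997, SE 0.289, edgeR with Benjamini-Hochberg adjustment, adjusted p = 0.0403). This was the least stable of the 7 calls. It was lost in 9 of the 10 analyses that left out 1 library, all but that without HG_1 (adjusted p of up to 0.0927), and without the filter on low counts, while it stood without both of the libraries apart (-1.29, adjusted p = 0.00679). Over the 19 alternative analyses that tested MAP1LC3A, its estimate lay between -1.29 and -0.466. The gene lies at chr20:34546854-34560345 on the plus strand.

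The GABARAP branch of the family was not called. GABARAP, GABARAPL1 and GABARAPL2 had estimates of 0.10, 0.06 and 0.13, and GABARAPL2 passed without control replicate 2 and HG_1 (0.16, adjusted p = 0.0086 in edgeR) but not after GC and length correction (0.04, adjusted p = 0.495). Summed per length over the 5 genes, GABARAP made up 56.4 ± 1.82% of ATG8 transcripts in controls and 54.1 ± 3.03% in high glucose. MAP1LC3B made up 18.9 ± 1.61% and 21.9 ± 1.88% (n = 5 each), with ranges of 16.1 to 20% and 18.7 to 23.7% that overlapped through HG_1. Without control replicate 2 and HG_1 the groups were separate for both shares, at 19 to 20% against 22.3 to 23.7% for MAP1LC3B and at 55.4 to 55.8% against 51.7 to 54.1% for GABARAP. GABARAP was thus the most abundant ATG8 transcript in both groups. Of the windows of GABARAP, 67.0% are shared with other genes, so its level is the less certain.

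Among the 5 receptor genes, all estimates were above 0 and 1 passed the test. SQSTM1 encodes p62, which binds ubiquitin on the cargo and LC3 on the membrane and is itself degraded by autophagy. It was at 772, 1012, 821, 818 and 890 CPM in control replicates 1 to 5 and at 1226, 1175, 1025, 1070 and 968 CPM in HG_1 to HG_5. High glucose libraries were higher apart from 1 overlap, between control replicate 2 and HG_5, and the highest library of each group was one that stood apart. The mean rose 1.27-fold, from 863 ± 93.3 to 1093 ± 106 CPM (log2 fold change 0.34, SE 0.0854, 95% interval 0.15 to 0.53, edgeR with Benjamini-Hochberg adjustment, adjusted p = 0.0211). The two-sided exact permutation test gave p = 0.0159 (0.0238 adjusted over the 3 genes). Without control replicate 2 and HG_1 the estimate was 0.36 (adjusted p = 0.00338 in edgeR), and the call was lost, narrowly, without HG_2, control replicate 1, control replicate 3 or control replicate 4 (adjusted p of up to 0.0541).
SQSTM1 lies at chr5:179806398-179838078 on the plus strand, and 48.1% of its windows overlap exons of MRNIP on the other strand. MRNIP was at 43.2 ± 5.81 CPM in controls and 57.6 ± 11.1 in high glucose (log2 fold change 0.42, adjusted p = 0.0587 in edgeR). The part of MRNIP reads in the SQSTM1 counts was not tested.

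The other receptors bind ubiquitin too and were not called. NBR1, OPTN (optineurin), TAX1BP1 and CALCOCO2 (NDP52) had estimates of 0.12, 0.04, 0.10 and 0.08. OPTN had the narrowest interval, from -0.06 to 0.13. TAX1BP1 alone passed without control replicate 2 and HG_1 (0.12, adjusted p = 0.0435 in edgeR). SQSTM1 made up 62.4 ± 3.48% of the transcripts of the 5 receptors per length in controls and 66.1 ± 3.69% in high glucose, and the ranges (59.4 to 68.2% and 61.6 to 71.2%) overlapped, as they did without control replicate 2 and HG_1 (59.4 to 62.6% and 61.6 to 68.2%).

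TFEB and TFE3, transcription factors that drive autophagy and lysosome genes once they enter the nucleus, were not called at the mRNA level, which does not report on their location. TFEB was at 10.2 ± 1.80 CPM in controls and 10.5 ± 1.07 in high glucose (log2 fold change 0.04, 95% interval -0.26 to 0.33). TFE3 was at 80.3 ± 7.83 and 71.6 ± 5.97 CPM (-0.17, 95% interval -0.34 to 0.01).

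The E-box CACGTG, searched on both strands in the 250 bases before the RefSeq start, was found for 2 of the 35 genes with an entry (5.71%) and in 6.49% of all 27305 such windows. ATG4D, RB1CC1, UVRAG and MAP1LC3A had no entry. The extended form TCACGTGA and the ATF4 composite element TGATGNAA were found for none of the 35 (0.89% and 3.19% of all windows), and the NRF2 core TGACNNNGC for 3 of them (8.57%, against 11% of all windows). Only 11 of the 35 windows lay wholly outside annotated exons of their gene, and that of SQSTM1 lies before its outermost start and not beside the start of its longest annotated transcript. All 5 matches are shown, with the motif in capitals and, for CALCOCO2, on the opposite strand. Those of ATG14, ATG3, ATG101 and MAP1LC3B lie in annotated exons of their own gene, and that of CALCOCO2 does not. ATG14 is chr14:55411834-55411863 on the minus strand, ATG3 is chr3:112561963-112561992 on the minus strand, and ATG101 (chr12:52069848-52069876), MAP1LC3B (chr16:87392280-87392308) and CALCOCO2 (chr17:48830896-48830924) are on the plus strand.
ATG14: aaaacaaaatccCACGTGactggctctcct
ATG3: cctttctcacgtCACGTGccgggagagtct
ATG101: tgtgcttctgTGACTACGCggatgttgtg
MAP1LC3B: gcgagtcaccTGACCAGGCtgcgggctga
CALCOCO2: cgctcctgggGCCCGGTCAcctgaacact
ATG14 and ATG3, which hold the E-box, were not called (estimates 0.17 and 0.12), and MAP1LC3B, which holds the NRF2 core, rose. ATG101 and CALCOCO2 also hold the NRF2 core and were not called. A match in these letters is a description of the window and not of binding.

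The number of genes called depended on the 2 libraries that stood apart. Without control replicate 2 and HG_1, 13 of the 39 genes passed, 9 higher and 4 lower, while the share of all rows called rose to 27.1%. The 6 genes added were ATG2A, ATG4D, GABARAPL2, RB1CC1, TAX1BP1 and WIPI2, and all 7 earlier calls stood. Once GC and length trends had been taken out of each library, 13 genes passed as well, again 9 higher and 4 lower, and 29.3% of all rows. AMBRA1, ATG14, ATG2A, ATG4A, ATG4D, RB1CC1 and WIPI2 were then added and ULK1 was lost. WIPI1, MAP1LC3B, SQSTM1, ATG12, VMP1 and MAP1LC3A kept their call and direction in both.

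**Figure D4:**
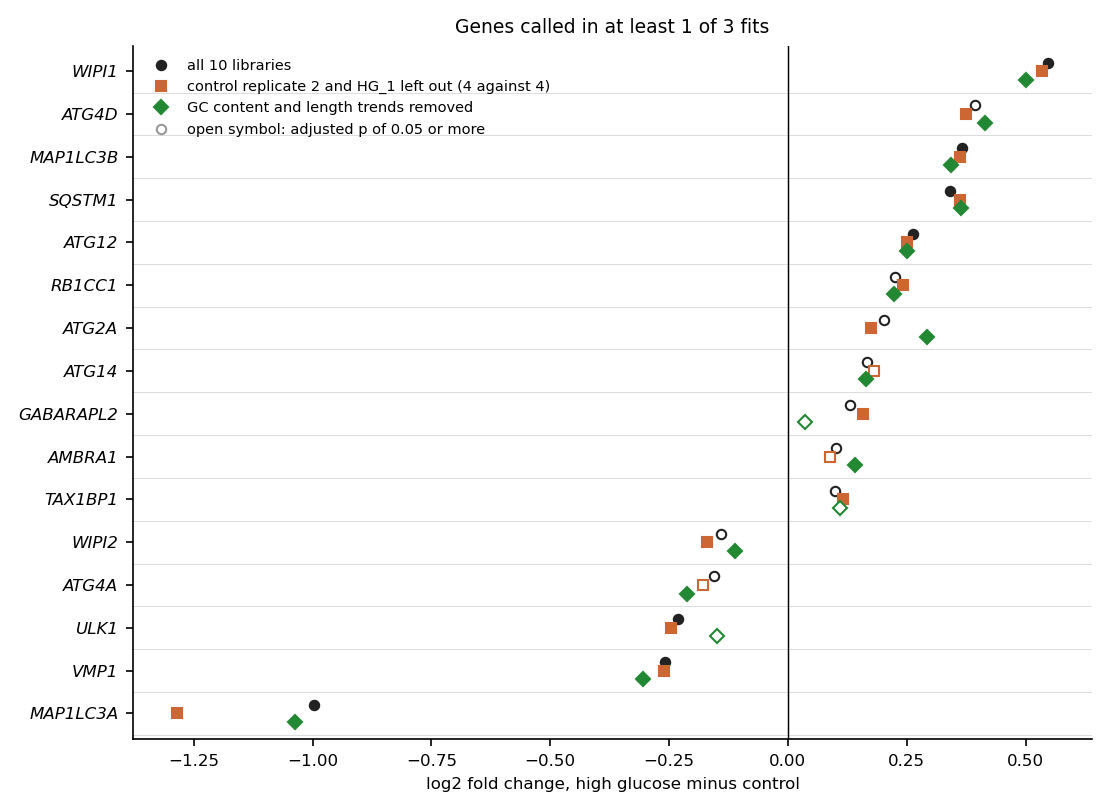
Log2 fold change (x axis) of the 16 genes called in at least 1 of 3 fits: all 10 libraries (circles), without control replicate 2 and HG_1 (squares), and with GC content and length trends removed (diamonds). Filled symbols passed the test, and each gene keeps its direction in all 3 fits.

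Genes around the 39 were read from 11 lists chosen by function, with earlier results of these data known. Counts of these lists are also given without control replicate 2 and HG_1 and after GC and length correction, and there they stand against larger shares of all rows: 13.3% higher and 13.8% lower in the first, and 14.5% higher and 14.8% lower in the second, in place of 7.62% and 7.8%. Of 150 tested genes of these lists that are not among the 39, 34 were higher and 7 lower, 27.3% against 15.4% of all rows. The lysosome is the compartment downstream of the steps above. Of 26 lysosomal genes of the CLEAR network, the set of genes known to carry TFEB sites, 11 were higher and none lower, with a median log2 fold change of 0.22. The largest were ASAH1 (acid ceramidase) at 1.08 (SE 0.107), NEU1 (a sialidase) at 0.66 (SE 0.113), CTNS (the cystine exporter) at 0.44 (SE 0.113) and HEXA (a subunit of hexosaminidase) at 0.44 (SE 0.0849). Without control replicate 2 and HG_1 the count was 19, and 20 after GC and length correction, while the share of all rows that were higher rose as well, to 13.3% and 14.5%.
Of 19 genes that control TFEB, 6 were higher and none lower. RRAGD, a Rag GTPase of the nutrient sensing complex on lysosomes, rose by 1.05 (SE 0.115), PPARGC1A, a transcriptional coactivator, by 0.98 (SE 0.146), FNIP2, a partner of folliculin, by 0.59 (SE 0.144), and RRAGB, another Rag GTPase, by 0.46 (SE 0.0896). Without control replicate 2 and HG_1, 8 of the 19 were higher and 1 lower, and after GC and length correction 8 higher and 3 lower. Of 18 genes of fusion with the lysosome, which include ATG14 and UVRAG, 3 were higher and none lower: PIP4P1, a lysosomal membrane protein (0.48, SE 0.122), RAB7A, the small GTPase of late endosomes (0.33, SE 0.0507), and PLEKHM1, an adaptor that binds RAB7A and LC3 (0.24, SE 0.068). The count was 6 without the 2 libraries and 8 after the correction.

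The other lists are given in the order of the steps. Of 14 further genes of the initiation and phagophore complexes, NRBF2, a subunit of the ATG14 complex, was higher (0.24, SE 0.0525), and RUBCN, an inhibitor of the UVRAG complex, and WDR45B, a relative of WIPI1, were lower (-0.27, SE 0.0555, and -0.23, SE 0.0516). In the same 2 alternatives 3 and 4 of them were higher and 2 and 3 lower. None of 6 further lipidation genes was called in edgeR, and none had an unadjusted p under 0.05, though 1 was called without the 2 libraries apart and 1 after GC and length correction. Of 17 kinases and regulators upstream of ULK1, PRKAB1, a subunit of the energy sensor AMPK, and RHEB, the activator of mTORC1, were higher (0.41, SE 0.0556, and 0.20, SE 0.0415), and the count was 5 without the 2 libraries and 6 after the correction.
Of 14 mitophagy genes, BNIP3, a receptor on mitochondria, and NIPSNAP2 were higher (0.58, SE 0.0831, and 0.23, SE 0.0586), and PINK1, the kinase that marks damaged mitochondria, and USP30, a deubiquitinase that opposes it, were lower (-0.33, SE 0.0719, and -0.18, SE 0.0531), with 3 higher and 2 lower in both alternatives. Of 11 genes of selective autophagy of the endoplasmic reticulum, the receptor CCPG1 alone was called (0.47, SE 0.0942), while 3 were higher and 1 lower without the 2 libraries and 3 higher after the correction. Of 12 further receptors and adaptors, LGALS8, a galectin that binds damaged membranes, was higher (0.25, SE 0.0559) and TRIM5 lower (-0.25, SE 0.0577). Without the 2 libraries 1 was higher and 2 lower, and after the correction 1 higher and 1 lower.

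A list of 12 of the 39 genes holds known targets of ATF4 or CHOP, transcription factors of the integrated stress response. It was chosen with earlier results of these data known. Its lowest estimate was -0.11, so ULK1, which was called lower, is not in it. MAP1LC3B, SQSTM1 and ATG12 were higher and none of the 12 was lower, 25% higher against 7.62% of all rows, with a median log2 fold change of 0.12. Without control replicate 2 and HG_1, 4 were higher (median 0.13) against 13.3% of all rows, and after GC and length correction 3 (median 0.07) against 14.5%. In the list of 16 further regulators, which holds these factors, 7 genes were higher and 2 lower, and 9 were higher and 2 lower in each of the 2 alternatives. TRIB3, a pseudokinase induced by both factors, rose by 1.27 (SE 0.0932), DDIT3, the gene of CHOP, by 0.78 (SE 0.144) and TP53INP2, which shuttles LC3 out of the nucleus, by 0.40 (SE 0.0743), while DAPK1, a kinase that acts on beclin 1, fell by 0.77 (SE 0.0914). ATF4, named after its values were seen, rose by 0.40 (SE 0.0768). The ATF4 composite element was found for none of the 35 genes with a promoter entry. The part of these factors in the results was not tested.

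**Figure D5:**
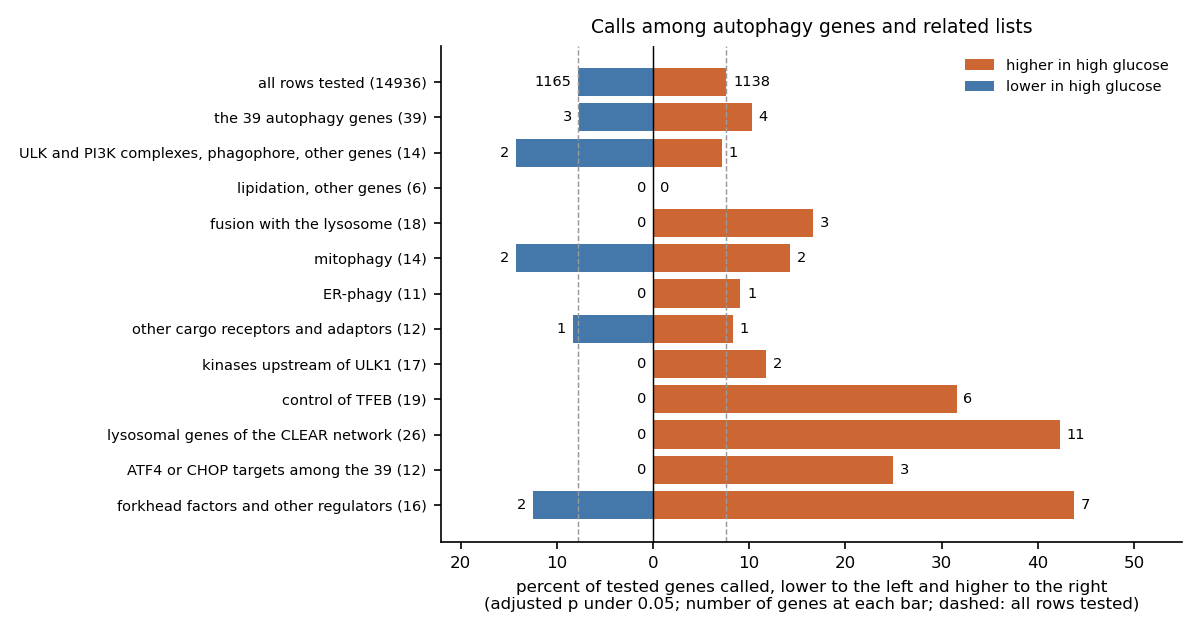
Percent of tested genes called in edgeR, higher to the right and lower to the left, for all rows, the 39 genes and the 11 lists, with the number of genes tested in parentheses and the number called at each bar. Dashed lines mark the shares over all rows, 7.62% higher and 7.8% lower, and the 39 genes lie near both while 11 of 26 lysosomal genes were higher.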

How the data were processed

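Libraries were made from total RNA with the VAHTS Universal V6 kit. The submitters' processing notes name fastp 0.20.1 (read trimming), HISAT2 2.2.1 (alignment) and the build GRCh38, and the authors deposited raw read counts and FPKM values per gene. The annotation, the counting program and its strand setting are not given in the sources used here.

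Counts were filtered with filterByExpr, scaled by TMM and tested with edgeR 4.0.16 (quasi-likelihood, 5 against 5, no covariate), with Benjamini-Hochberg adjustment over all rows tested. Levels are TMM-scaled CPM or the deposited FPKM. The labels give no batch. They number the controls and letter the high glucose libraries, and columns of both groups carry numbers whose link to the letters is not given. The 39 genes and the other gene lists were chosen with earlier results of these data known. Values in every library were given for SQSTM1, MAP1LC3B, ATG5 and those of the 39 that were called, and at most 4 called genes were named per list, those with the largest absolute log2 fold change. Neighbouring genes were named for their position.

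Alternatives were DESeq2 1.42.0, RLE or library-size scaling, other filters, limma 3.58.1 on log2(FPKM + 1) or log2(FPKM + 0.1), each library left out, both libraries that stand apart left out, removal of each library's lowess trends (span 0.3) on GC content and length, and, chosen after seeing the data, the column number as a block.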

Additional observations from a re-analysis of the deposited data

Results flagged for a closer look

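In 7 of 78 groups of 5 libraries (39 genes, each in control and high glucose) the highest or lowest library lay farther from the rest than Dixon's 95% critical value allows. Chance flags about 1 in 20 such groups, here 3.9, and 5 of the 7 values came from HG_1 or control replicate 2. HG_1 was low for RB1CC1 at 69.7 CPM (others 97.5 to 107) and for NBR1 at 133 CPM (163 to 172). It was high for ATG101 at 41.7 CPM (29.7 to 32.0) and for ATG2A at 145 CPM (119 to 123). Control replicate 2 was high for GABARAP at 326 CPM (256 to 270). HG_2 was low for ATG10 at 6.18 CPM (7.33 to 7.71), and control replicate 4 was low for TFEB at 7.02 CPM (10.8 to 11.4). The part of these values in the results was not tested beyond the analyses that left the libraries out.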

How the results depend on the processing

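WIPI1, MAP1LC3B and VMP1 were called in all 20 alternative analyses. With either both libraries apart left out or the GC and length trends removed, 9 of the 39 genes were higher in place of 4 and 4 lower in place of 3, and 4035 and 3965 rows of the whole table were called in place of 2303. With 1 library left out in turn, between 2 and 6 genes were higher and between 1 and 4 lower, between 1648 and 2993 rows were called, and the SQSTM1 estimate lay between 0.30 and 0.41. The cause was not tested. DESeq2 called 10 genes (and 19.3% of all rows), library size alone 9 (15.4%), and at least 10 counts in every library 8 (17.7%). Each of the 3 limma analyses called 6 (13.4 to 15.9%), as did edgeR without a filter (11.1%). No called value changed sign: 26 of 779 estimates did, in 9 genes called in neither fit. With the number in the column name as a replicate block, an alternative chosen after seeing the data, WIPI1 and MAP1LC3B were higher and VMP1 lower (2 and 1 genes), 1071 rows were called, and SQSTM1 kept its estimate (0.342) at an adjusted p of 0.0601 in edgeR. No link between equal numbers is known: their libraries' deviations from the group means correlated between -0.07 and 0.04 over 5 pairs, none over 0.1.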
